A study of Mus with 18 samples.

Results

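LPS (lipopolysaccharide), a component of the envelope of Gram-negative bacteria, was compared with no treatment in RAW264.7 cells. This permanent mouse line resembles macrophages and was transformed by the Abelson murine leukaemia virus. The comparison holds 6 of the 18 RNA-seq libraries of the series. LPS libraries, replicates 1 to 3, came from cells whose label states LPS stimulation and no other agent. Untreated libraries, also replicates 1 to 3, came from cells of the same line that were labelled as given nothing. The members were chosen by these treatment labels alone. The other 12 libraries, 3 for each of 4 groups, were from cells given a sialic polymer after LPS, namely POx-SA, PPLG-SA, PPLG-4V-SA or PPLG-2V-SA. They enter here through the shared estimate of the spread, the filter on low counts and the scaling of the libraries. The series title concerns sialic acid polymers, Siglec receptors and cytokine storm. In that design LPS against no treatment is the contrast that holds no polymer. Untreated libraries also had many reads of activation genes such as Nos2 and Csf3, and whether those cells were at rest was not tested. An effect of LPS cannot be told apart from a difference between the groups in preparation, which the labels do not describe. No dose or time of LPS, no passage number and no information on whether replicates were separate cultures is given in the labels, so each p-value measures the spread between these libraries, which may be technical.

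Macrophages recognise LPS through TLR4, which binds it together with MD-2 (encoded by Ly96) after transfer from CD14. One branch of the signal runs through the adaptors TIRAP and MyD88 to NF-kB and the MAP kinases and turns on cytokine genes, and the other runs through TRAM (Ticam2) and TRIF (Ticam1) to IRF3 and type I interferon, which in turn acts through STAT factors and IRF9 on interferon-stimulated genes. Many of the induced genes encode inhibitors of the same pathway, and the induced set changes with time after the stimulus. RAW264.7 cells divide in culture, and in macrophages LPS is also known to act on the cell cycle and on metabolism.

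Total counts were 15886080, 14761261 and 15971157 in the LPS libraries, against 9755591, 10546678 and 10992859 in the untreated libraries. Of 24 macrophage identity genes, 21 had counts, and their summed level on plain totals was 10338, 10928 and 10990.2 CPM in LPS libraries, against 13624, 13397 and 14304 CPM in untreated libraries; C1qa, C1qb and C1qc, which encode the complement component C1q of resident macrophages, were at 0 in all 6 libraries. Of 13 neutrophil markers 6 were at 0 in all 6 libraries (Ly6g, Elane, Ltf, Ngp, Retnlg and Ctsg), and the summed level of the list was 171, 157 and 240.5 CPM in LPS libraries, against 2007, 2155 and 1951 CPM in untreated libraries, of which 99.5% was S100a8. Lists for mast cells, dendritic cells, lymphocytes, fibroblasts, epithelium, endothelium and erythroid cells had a summed level under 12 CPM in each library. LPS replicate 3 stood apart: across genes its log2 CPM correlated at 0.9485 and 0.9402 with LPS replicates 1 and 2, which correlated at 0.99 with each other, and the untreated libraries at 0.9923 to 0.9937. Its difference followed gene length, which was computed from the deposited counts and FPKM. The median log2 ratio of LPS replicate 3 over LPS replicates 1 and 2 was 0.35 in the bin of shortest genes (median length 1042 bases) when 8788 genes were split by length into 5 equal bins, 0.14, -0.02 and -0.22 in the next 3 bins, and -0.58 in the bin of longest genes (median length 6445 bases). Where a named gene gained or lost its call when this library alone was left out, both values are given. Across genes, the deviation of LPS replicate 3 from its group mean correlated at 0.907 with that of LPS + POx-SA replicate 3. LPS replicates 1 and 2 deviated most alike with LPS + POx-SA replicates 2 and 1 (0.7 and 0.644). Deviations are taken from the mean of each group and cancel within it. The shared deviation of replicate 3 therefore bears on these 2 values, which are not separate evidence. The fit treats all of these libraries as independent, and the cause of the shared deviations was not tested. In these bulk libraries, fewer cells in a state and less RNA of a gene per cell cannot be told apart.

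**Figure D1:**
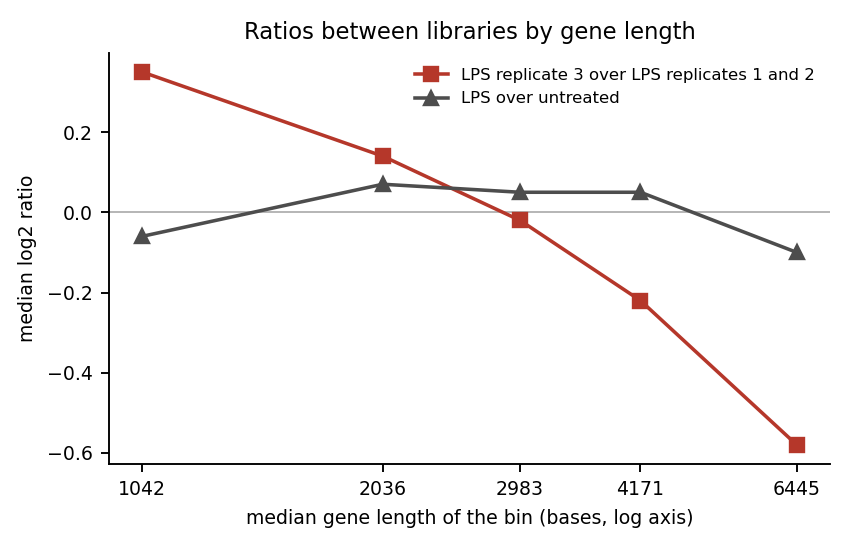
Median log2 ratio of LPS replicate 3 over the mean of LPS replicates 1 and 2 (squares) and median log2 fold change of LPS over untreated (triangles), for 8788 genes in 5 equal bins of gene length, placed at the median length of each bin in bases on a log axis. The ratio among LPS libraries is 0.35 in the bin of shortest genes and -0.58 in that of longest genes, while the fold change of LPS over untreated stays between -0.10 and 0.07. That flat line joins LPS libraries with opposite trends, which are not drawn. On library totals, the median log2 ratio of LPS replicates 1 and 2 over untreated is 0.08 in the shortest bin and 0.36 in the longest. For LPS replicate 3 over untreated it is 0.43 and -0.28.

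With 13482 genes tested, 7982 (59.2%) differed between LPS and untreated cells at an adjusted p below 0.05 by edgeR's quasi-likelihood test. Of all tested genes 4149 (30.8%) were higher in LPS libraries and 3833 (28.4%) were lower, and for 8718 (64.7%) the 3 LPS values did not overlap the 3 untreated values. With so many genes changed, the counts within a gene group are to be read against 30.8% and 28.4%. Most named genes were picked among called ones, many by low p or by a lack of overlap. That their groups do not overlap is therefore no added support, and is to be read against 64.7%. Genes that "rose" or "fell" passed that threshold, and a log2 fold change is given ± SE. CPM stands for a count divided by the effective (TMM) library size and multiplied by 1e+06. Fold changes are relative to the scaling of the libraries. On library totals alone the median over all genes moved by 0.27, with 5619 genes higher and 2537 lower. On the deposited FPKM plus 1 the median moved by 0.30, with 5937 higher and 2619 lower, so small falls in particular depend on the scaling. Of the 52 gene lists, 45 had fewer falls on FPKM plus 1 than by counts and 47 had more rises, and where that turned the balance of a list whose counts are stated, both are given. Of the named genes not called, Pcna, Spi1, Tnfrsf1b and Tollip were called higher on both of these scalings. Gene groups were described by members that passed the filter on low counts, which a gene can pass through the group where it is high.

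**Figure D2:**
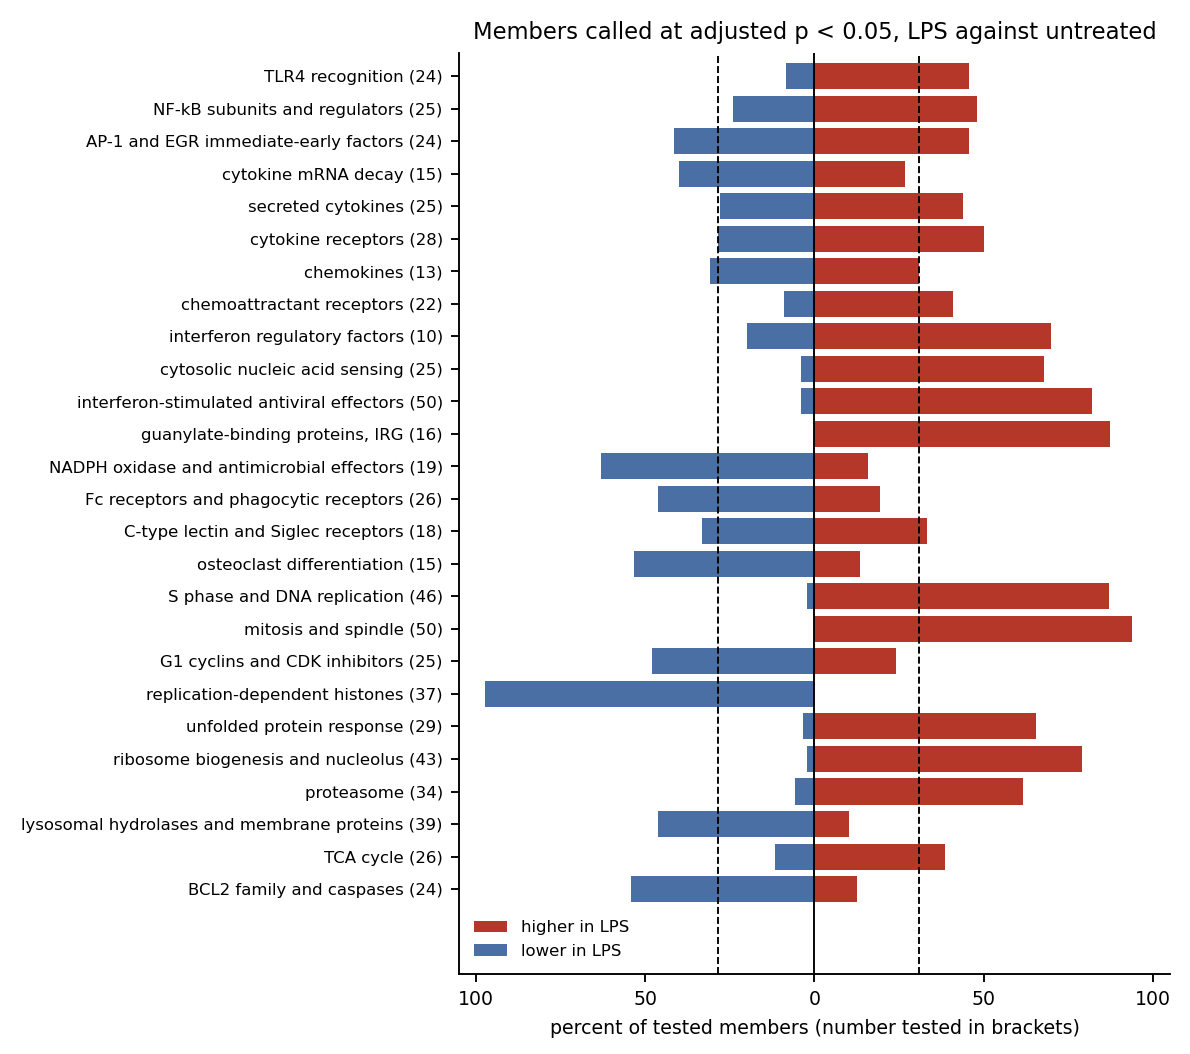
Percent of tested members of 26 gene lists that were higher (bars to the right) and lower (bars to the left) in LPS than in untreated libraries at an adjusted p below 0.05, with dashed lines at the 30.8% and 28.4% of all 13482 genes. Mitosis, S phase, interferon effectors and guanylate-binding proteins extend far to the right and replication-dependent histones and antimicrobial effectors to the left.

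The adaptor genes Ticam1, Ticam2 and Myd88 of the LPS receptor rose, while Cd14 was not called and the call of Tlr4 depended on LPS replicate 3. Of 24 tested genes of TLR4 recognition and proximal signalling, 11 rose and 2 fell, with a median log2 fold change of 0.36 against 0.02 over all genes. Tlr4, the receptor itself, stood at 44.9, 59.8 and 25.3 CPM in LPS libraries, against 31.7, 28.5 and 30.6 in untreated libraries, with overlapping groups (log2 fold change 0.52 ± 0.26, 95% interval -0.02 to 1.06, not called), and without LPS replicate 3 it was called higher (log2 fold change 0.80, adjusted p = 0.0036 by edgeR). Cd14, which hands LPS to the receptor, was at 1257, 1424 and 1565 CPM in LPS libraries, against 1486, 1501 and 1570.2 in untreated libraries (log2 fold change -0.10 ± 0.12, 95% interval -0.36 to 0.16). The transcript of Ticam1, which encodes TRIF, was at 48.9, 59.6 and 50.4 CPM in LPS libraries, against 10.6, 13.9 and 15.3 in untreated libraries (log2 fold change 1.99 ± 0.14, adjusted p = 4.15e-09). Its bridging adaptor Ticam2 (TRAM) was at 16.8, 17.2 and 16.6 CPM in LPS libraries, against 6.26, 5.14 and 7.82 in untreated libraries (log2 fold change 1.39 ± 0.15). Myd88, the adaptor of the other branch, was at 56.7, 67.1 and 62.4 CPM in LPS libraries, against 28.4, 34.6 and 33.2 in untreated libraries (log2 fold change 0.95 ± 0.12). For these 3 adaptors every LPS library lay above every untreated library. Downstream of the adaptors, Ripk1, a kinase that joins TRIF to NF-kB and to cell death, stood at 28.5, 40.9 and 31.1 CPM in LPS libraries, against 7.26, 10.3 and 7.37 in untreated libraries (log2 fold change 2.01 ± 0.20). Traf6, the ubiquitin ligase of the MyD88 branch, was at 64.6, 69 and 46 CPM in LPS libraries, against 31.4, 29.7 and 35.8 in untreated libraries (log2 fold change 0.89 ± 0.15). Irak3, which encodes the inhibitory kinase-like protein IRAK-M, reached 228, 283 and 216 CPM in LPS libraries, against 104, 103 and 105 in untreated libraries (log2 fold change 1.22 ± 0.14). Tollip, another inhibitor, did not pass the test, at 158 ± 4.4 CPM in LPS libraries and 165 ± 8.71 CPM in untreated libraries (SD, n = 3 each).

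NF-kB genes changed unevenly: of 25 subunits and regulators 12 rose and 6 fell (median log2 fold change 0.20; 17 and 2 on FPKM plus 1). Nfkb2, which encodes the p100 precursor of the non-canonical pathway, was at 94.5, 105 and 99.7 CPM in LPS libraries, against 46.3, 49.5 and 48.7 in untreated libraries (log2 fold change 1.05 ± 0.08, adjusted p = 1.90e-08). Among the nuclear IkB proteins, which modulate NF-kB on DNA, Bcl3 was at 103, 112 and 97.2 CPM in LPS libraries, against 40.7, 40.5 and 40.2 in untreated libraries. Nfkbiz was at 427, 516 and 328 CPM in LPS libraries, against 168, 162 and 175 in untreated libraries. Both rose, by 1.36 ± 0.14 for Bcl3 and 1.33 ± 0.14 for Nfkbiz on the log2 scale. The third of them, Nfkbid, fell to 31.8, 25.5 and 31.3 CPM in LPS libraries, against 93.4, 88.2 and 89.3 in untreated libraries (log2 fold change -1.61 ± 0.12). Nfkbia, the classical feedback inhibitor IkB alpha, was likewise lower, at 1060.1, 982 and 1155 CPM in LPS libraries, against 1694, 1668 and 1646 in untreated libraries (log2 fold change -0.65 ± 0.11). Tnfaip3, the feedback deubiquitinase A20, did not pass the test, at 92.4 ± 26.3 CPM in LPS libraries and 95.6 ± 2.49 CPM in untreated libraries (SD, n = 3 each). Without LPS replicate 2 it was called lower (log2 fold change -0.30, adjusted p = 0.00992 by edgeR). Traf1 and Birc3 encode survival factors of TNF receptor complexes. Traf1 was at 47.9, 83.1 and 54.3 CPM in LPS libraries, against 16.5, 16.6 and 15.8 in untreated libraries (log2 fold change 1.92 ± 0.20). Birc3 was at 71.2, 82.6 and 68.8 CPM in LPS libraries, against 19.3, 19.3 and 22.2 in untreated libraries (log2 fold change 1.87 ± 0.12). Both rose, and Tnip1, a partner of A20, rose by 0.96 ± 0.12 on the log2 scale.

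**Figure D3:**
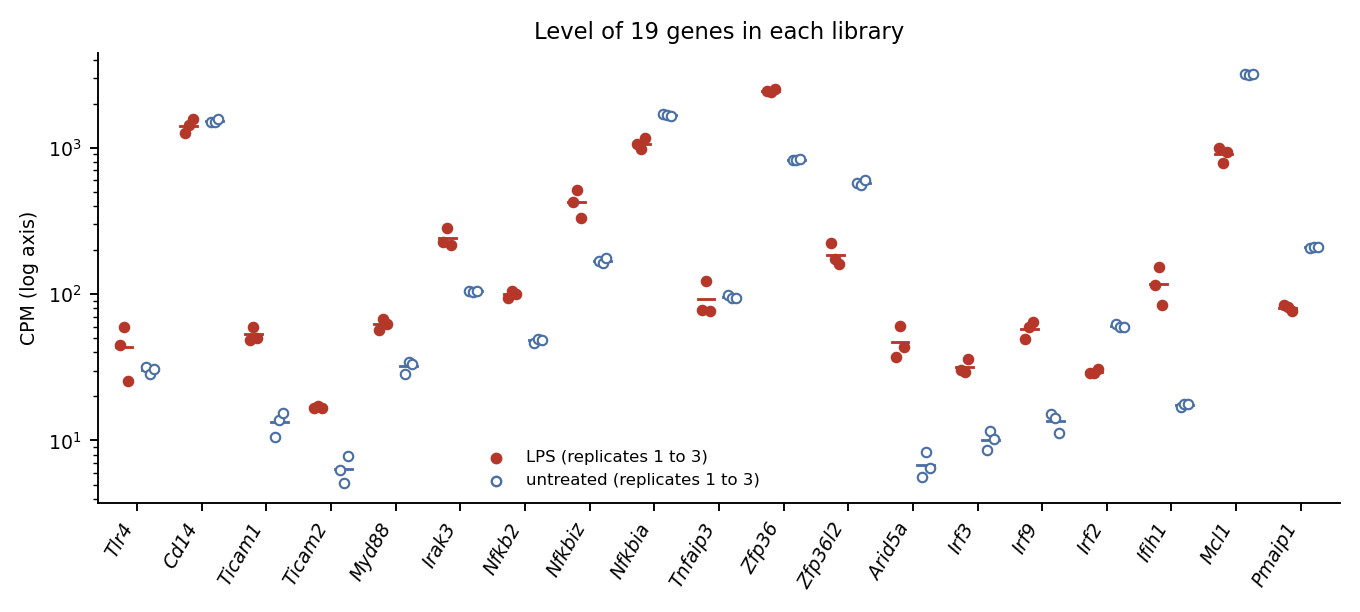
Level in CPM (log axis) of 19 genes of LPS recognition, NF-kB, interferon signalling, mRNA decay and cell survival in each library, with the 3 LPS libraries as filled circles left of the 3 untreated libraries as open circles and a bar at each mean. Ticam1, Arid5a, Irf9 and Ifih1 lie higher in all LPS libraries, Nfkbia and Mcl1 lower, and Tlr4 overlaps.

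Immediate-early transcription factors parted, with 11 of 24 AP-1, EGR and related genes higher and 10 lower (median log2 fold change -0.06). Junb, an AP-1 subunit, was at 1653, 1715 and 2036 CPM in LPS libraries, against 619.6, 599 and 639 in untreated libraries (log2 fold change 1.54 ± 0.13, adjusted p = 4.28e-08). Jund, its relative, went the other way, at 237, 237 and 224 CPM in LPS libraries, against 702, 697 and 622 in untreated libraries (log2 fold change -1.53 ± 0.12, adjusted p = 1.25e-08). Ier2 was at 122, 217 and 142 CPM in LPS libraries, against 40.6, 45.4 and 35 in untreated libraries and rose (log2 fold change 1.99 ± 0.30). The largest fall of the list was that of Klf6, a zinc finger factor of macrophage activation, at 509, 484 and 405 CPM in LPS libraries, against 2525, 2705 and 2589.9 in untreated libraries (log2 fold change -2.48 ± 0.11). Myc and Ier3 also fell (log2 fold changes -0.75 ± 0.12 and -0.81 ± 0.11), and in none of these 6 genes did the groups overlap. Among the phosphatases and Sprouty proteins that end MAP kinase signals, 4 of 16 rose and 7 fell, but on FPKM plus 1 6 rose and 1 fell. Dusp2, a phosphatase of activated leukocytes, was at 198, 186 and 196 CPM in LPS libraries, against 68.6, 62.3 and 67.1 in untreated libraries (log2 fold change 1.55 ± 0.12), and Spry2 rose by 2.01 ± 0.20 on the log2 scale. Dusp1, the classical glucocorticoid- and LPS-induced phosphatase, was lower by counts (log2 fold change -0.54 ± 0.13), a call that was lost on library totals alone and on FPKM.

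Factors that control the life of cytokine mRNAs moved both ways (4 of 15 rose and 6 fell, or 5 and 3 on FPKM plus 1 and 6 and 5 without LPS replicate 3). Zfp36, which encodes tristetraprolin, the protein that binds AU-rich elements and leads Tnf mRNA to decay, was at 2420.3, 2410.1 and 2503 CPM in LPS libraries, against 822, 819 and 835 in untreated libraries (log2 fold change 1.57 ± 0.11, adjusted p = 4.35e-09). Its paralogs moved the other way: Zfp36l2 was at 222, 172 and 161 CPM in LPS libraries, against 573, 558 and 597 in untreated libraries (log2 fold change -1.64 ± 0.16). Zfp36l1 was at 26.4, 24.5 and 24 CPM in LPS libraries, against 78.3, 78 and 83.2 in untreated libraries (log2 fold change -1.68 ± 0.16). Arid5a, which stabilises Il6 mRNA, was at 37.4, 60.8 and 43.5 CPM in LPS libraries, against 5.64, 8.29 and 6.48 in untreated libraries (log2 fold change 2.79 ± 0.25, adjusted p = 6.66e-08). Every LPS library lay outside the range of the untreated libraries for these 4 genes. Hnrnpd (AUF1), another AU-rich element binding protein, fell as well (log2 fold change -0.87 ± 0.12).

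Secreted cytokines rose in 11 cases of 25 and fell in 7. Il10 was at 100.4, 173 and 151 CPM in the LPS libraries, against 13.2, 13.2 and 12.8 CPM in the untreated libraries. Il27, the p28 subunit of interleukin-27, was at 10.1, 10.5 and 14.2 CPM in LPS libraries, against 3.13, 3.5 and 3.46 in untreated libraries (log2 fold change 1.78 ± 0.19). Ebi3, the gene of the subunit that pairs with it, fell to 77, 79.5 and 80.8 CPM in LPS libraries, against 147, 149 and 140.1 in untreated libraries (log2 fold change -0.88 ± 0.09). The partners of this heterodimer thus moved in opposite directions. Csf1, the growth factor that macrophages depend on, was at 6.71, 9.84 and 6.72 CPM in LPS libraries, against 1, 1.52 and 0.894 in untreated libraries (log2 fold change 2.76 ± 0.25). Tgfb1 was at 194, 170.2 and 226 CPM in LPS libraries, against 595, 593 and 546 in untreated libraries (log2 fold change -1.55 ± 0.12). Il1rn, the interleukin-1 receptor antagonist, was at 1669.5, 1888 and 1944 CPM in LPS libraries, against 3146, 3390.1 and 3165 in untreated libraries (log2 fold change -0.82 ± 0.12). Both were lower in every LPS library. Csf3, the gene of the neutrophil growth factor G-CSF, was high in both groups and did not pass the test, at 2547 ± 383 CPM in LPS libraries and 3049 ± 108 CPM in untreated libraries (SD, n = 3 each), but without LPS replicate 3 it was called lower (log2 fold change -0.38, adjusted p = 0.0487 by edgeR). Il1b stood at 17.6 ± 0.981 CPM in LPS libraries and 19.5 ± 3.98 CPM in untreated libraries and was not called. Ifnb1, which encodes interferon beta, was near the limit of detection, with 3, 2 and 2 reads in LPS libraries, against 3, 7 and 3 in untreated libraries and was not called. Il6 was at 17.1, 22.4 and 13.3 CPM in LPS libraries, against 5.89, 5.26 and 6.59 in untreated libraries (log2 fold change 1.57 ± 0.25). Il12b was at 1.87, 2.74 and 2.73 CPM in LPS libraries, against 0.501, 0.467 and 0.67 in untreated libraries (log2 fold change 2.14 ± 0.65), and both rose.

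Among receptors of cytokines 14 of 28 rose and 8 fell. Tgfbr2, the ligand-binding TGF-beta receptor, was at 82.8, 81.7 and 68.5 CPM in LPS libraries, against 33.4, 30.1 and 28.4 in untreated libraries (log2 fold change 1.34 ± 0.10, adjusted p = 6.59e-09), so the receptor was higher where its ligand gene Tgfb1 was lower. Il15ra, which presents interleukin-15, was at 11.8, 11.3 and 11.4 CPM in LPS libraries, against 4.26, 4.32 and 3.46 in untreated libraries. Ifngr1, the ligand-binding chain of the interferon gamma receptor, was at 22.7, 27.6 and 27.5 CPM in LPS libraries, against 13.3, 10.9 and 12.7 in untreated libraries. Csf3r, the receptor of G-CSF, was at 12.1, 14.7 and 12.1 CPM in LPS libraries, against 4.26, 3.39 and 4.8 in untreated libraries. All 3 rose, by log2 fold changes of 1.52 ± 0.18, 1.08 ± 0.13 and 1.64 ± 0.19. Cd40 and Il4ra rose too (1.01 ± 0.14 and 0.92 ± 0.11), and Tnfrsf1b, a receptor of TNF, was not called at 679.6 ± 57.3 CPM in LPS libraries and 650.1 ± 28.3 CPM in untreated libraries (SD, n = 3 each). 

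Of 13 chemokines 4 were higher and 4 lower, near the 30.8% and 28.4% of all tested genes (6 and 3 on FPKM plus 1, 4 and 5 without LPS replicate 3). Cxcl10, the interferon-induced attractant of T cells, was at 24, 27.4 and 21.5 CPM in LPS libraries, against 6.01, 3.5 and 3.35 in untreated libraries (log2 fold change 2.51 ± 0.25). Ccl22 was at 3.55, 3.13 and 4.32 CPM in LPS libraries, against 1.13, 0.35 and 1.56 in untreated libraries (log2 fold change 1.84 ± 0.36). The neutrophil attractants Cxcl2 and Cxcl3 were lower in LPS libraries: Cxcl2 was at 857, 782 and 1093 CPM in LPS libraries, against 2502, 2662 and 2734 in untreated libraries (log2 fold change -1.53 ± 0.12). Cxcl3 was at 73.3, 64.3 and 69.6 CPM in LPS libraries, against 189.5, 193 and 189 in untreated libraries (log2 fold change -1.46 ± 0.16). Ccl4 rose by 1.27 ± 0.12, whereas its neighbour in function Ccl3 did not pass the test, at 5643 ± 700.3 CPM in LPS libraries and 4579 ± 168 CPM in untreated libraries (SD, n = 3 each).

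Receptors for chemoattractants rose in 9 of 22 cases, with 2 falls and a median log2 fold change of 1.10. C3ar1, the receptor of the complement fragment C3a, was at 248, 357 and 239 CPM in LPS libraries, against 80.9, 79.3 and 76.2 in untreated libraries (log2 fold change 1.84 ± 0.14, adjusted p = 9.36e-09). C5ar1, that of C5a, was at 30.4, 44.9 and 42.2 CPM in LPS libraries, against 16.9, 14.4 and 18.3 in untreated libraries (log2 fold change 1.24 ± 0.20). Ccrl2, an atypical receptor that presents chemerin and is known as LPS-inducible, was at 28.1, 29.2 and 31.5 CPM in LPS libraries, against 4.76, 5.84 and 5.36 in untreated libraries (log2 fold change 2.47 ± 0.13). Gpr84, a receptor of medium-chain fatty acids, was at 5.68, 12.2 and 9.18 CPM in LPS libraries, against 2.25, 2.1 and 2.01 in untreated libraries (log2 fold change 2.08 ± 0.31). In all 4 the 3 LPS libraries lay above the untreated ones. The fractalkine receptor gene Cx3cr1 went against them, at 20.6, 16.7 and 24.8 CPM in LPS libraries, against 42.8, 50.2 and 34.3 in untreated libraries (log2 fold change -1.03 ± 0.19).

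Interferon signalling genes rose at several levels of the pathway. Of the interferon regulatory factors and their binding partners 7 of 10 rose and 2 fell (median log2 fold change 1.15). Irf9, the DNA-binding subunit of the complex ISGF3, was at 49.1, 59.4 and 64.5 CPM in LPS libraries, against 15.2, 14.3 and 11.3 in untreated libraries (log2 fold change 2.09 ± 0.13, adjusted p = 1.44e-09). Irf3, the factor that TRIF activates, was at 30.4, 29.4 and 36.2 CPM in LPS libraries, against 8.64, 11.6 and 10.2 in untreated libraries (log2 fold change 1.66 ± 0.16). Irf8, a lineage factor of macrophages, was at 146, 121 and 168 CPM in LPS libraries, against 56, 58.5 and 49 in untreated libraries (log2 fold change 1.41 ± 0.13). Irf7, which amplifies interferon production, was at 267, 209 and 354 CPM in LPS libraries, against 132, 141 and 129 in untreated libraries (log2 fold change 1.04 ± 0.17). The repressor Irf2 fell to 29.1, 28.9 and 30.7 CPM in LPS libraries, against 62.5, 59.9 and 59.5 in untreated libraries (log2 fold change -1.04 ± 0.09). The co-repressors that bind it parted: Irf2bp1 was at 21, 22.2 and 22.1 CPM in LPS libraries, against 3.76, 4.67 and 2.35 in untreated libraries (log2 fold change 2.60 ± 0.25). Irf2bp2 was at 139, 85.6 and 93.8 CPM in LPS libraries, against 353, 319 and 337 in untreated libraries (log2 fold change -1.66 ± 0.24). None of these genes overlapped between groups. Stat2, which binds Irf9 in ISGF3, rose by 0.61 ± 0.10 on the log2 scale. Socs3, the feedback inhibitor of STAT3 signalling, was at 2735, 2849 and 2891 CPM in LPS libraries, against 1165, 1143 and 1217 in untreated libraries (log2 fold change 1.27 ± 0.10). Socs4 fell to 119.8, 104 and 70.6 CPM in LPS libraries, against 211, 220.3 and 219 in untreated libraries (log2 fold change -1.14 ± 0.19). Pias1, a SUMO ligase, fell to 71, 62.2 and 61.4 CPM in LPS libraries, against 129.9, 146 and 132 in untreated libraries (log2 fold change -1.07 ± 0.09). The JAK-STAT list as a whole had 5 of 21 genes higher and 6 lower, and on FPKM plus 1 9 higher and 2 lower.

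Sensors of foreign nucleic acids were higher in LPS libraries, with 17 of 25 members up, 1 down and a median log2 fold change of 0.73. Ifih1, which encodes the RNA sensor MDA5, was at 116, 152 and 83.7 CPM in LPS libraries, against 17, 17.8 and 17.9 in untreated libraries (log2 fold change 2.74 ± 0.19, adjusted p = 4.15e-09). Its adaptor Mavs was at 46, 48.2 and 40.4 CPM in LPS libraries, against 20.5, 21.6 and 19.8 in untreated libraries (log2 fold change 1.12 ± 0.11). Trim21, a cytosolic antibody receptor and ubiquitin ligase, was at 5.49, 6.65 and 6.72 CPM in LPS libraries, against 1.25, 0.584 and 0.782 in untreated libraries (log2 fold change 2.85 ± 0.32). Zbp1, a sensor of Z-form nucleic acid that starts cell death, was at 13.7, 14.1 and 13.2 CPM in LPS libraries, against 3.63, 3.97 and 3.13 in untreated libraries (log2 fold change 1.93 ± 0.18). Trex1, the nuclease that degrades cytosolic DNA, rose by 1.45 ± 0.17, and Ifi207 of the p200 family by 1.68 ± 0.11. All 6 were higher in every LPS library. The only called fall was that of Aim2, the DNA sensor of an inflammasome, at 310.1, 243 and 232 CPM in LPS libraries, against 448, 426 and 469 in untreated libraries (log2 fold change -0.77 ± 0.12). 

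Antiviral effectors took a share of all counts of 0.352%, 0.404% and 0.391% in LPS libraries, against 0.189%, 0.197% and 0.185% in untreated libraries (51 genes; exact permutation p = 0.1, two-sided, the smallest that 3 against 3 libraries allow). Of 50 tested, 41 rose and 2 fell (median log2 fold change 1.00). Parp9, whose product pairs with the ubiquitin ligase DTX3L, was at 37.8, 51.2 and 34.8 CPM in LPS libraries, against 8.39, 8.29 and 6.14 in untreated libraries (log2 fold change 2.44 ± 0.15, adjusted p = 8.93e-10). Parp12 was at 43.8, 48.3 and 43.4 CPM in LPS libraries, against 12, 12 and 11.4 in untreated libraries (log2 fold change 1.93 ± 0.14). Ifi44 was at 111, 113 and 85.9 CPM in LPS libraries, against 34.3, 35.4 and 30.2 in untreated libraries (log2 fold change 1.63 ± 0.11). Rsad2 (viperin) was at 182, 168 and 159 CPM in LPS libraries, against 33.8, 38.6 and 38.8 in untreated libraries (log2 fold change 2.19 ± 0.10). Usp18, which removes ISG15 and blocks the interferon receptor, was at 157, 184 and 179 CPM in LPS libraries, against 46, 50.1 and 52.5 in untreated libraries (log2 fold change 1.80 ± 0.11). These 5 genes did not overlap between groups. Ifitm2, an inhibitor of viral entry, stood at 200.0 ± 66 CPM in LPS libraries and 211 ± 10.3 CPM in untreated libraries (SD, n = 3 each). Bst2 (tetherin) stood at 141 ± 45.7 CPM in LPS libraries and 154 ± 15.8 CPM in untreated libraries, and neither was called.

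Guanylate-binding proteins and immunity-related GTPases, which attack the vacuoles of intracellular microbes, started from low levels. The summed level of all 19 genes was 123, 143 and 108 CPM in LPS libraries, against 25.9, 45.8 and 27.7 CPM in untreated libraries. Among 16 that passed the filter on low counts, 14 were called higher and 0 lower. Gbp3 was at 8.78, 11.4 and 8.25 CPM in LPS libraries, against 0.752, 1.05 and 1.79 in untreated libraries (log2 fold change 2.96 ± 0.22, adjusted p = 9.26e-09). Irgm1 was at 24.3, 22.4 and 19.3 CPM in LPS libraries, against 6.39, 4.44 and 6.37 in untreated libraries (log2 fold change 1.94 ± 0.14). Ifi47 was at 6.78, 9.84 and 7.98 CPM in LPS libraries, against 0.877, 1.4 and 1.12 in untreated libraries (log2 fold change 2.84 ± 0.38). Igtp (Irgm3) was at 9.1, 12.3 and 10.3 CPM in LPS libraries, against 2.63, 3.74 and 2.35 in untreated libraries (log2 fold change 1.86 ± 0.24). Gbp9 was at 14.1, 21.1 and 8.91 CPM in LPS libraries, against 3.13, 2.92 and 3.13 in untreated libraries (log2 fold change 2.26 ± 0.25). In each of these 5 genes the LPS libraries lay above the untreated ones. Gbp4 had 55 reads over the LPS libraries and 3 over the untreated ones, a ratio after scaling to effective (TMM) library sizes of 10.2 (exact 95% counting interval 3.31 to 50.9). For Gbp6, 64 and 2 reads gave 17.8 (4.73 to 150.0).

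Antigen presentation changed in parts. Among class I genes that rose, Tap1, a subunit of the peptide transporter, was at 115, 113 and 122 CPM in LPS libraries, against 48.1, 41.4 and 35.2 in untreated libraries (log2 fold change 1.49 ± 0.13, adjusted p = 5.88e-08). Psmb9, an immunoproteasome subunit, was at 12.4, 9.32 and 14.9 CPM in LPS libraries, against 2, 2.34 and 3.58 in untreated libraries (log2 fold change 2.20 ± 0.29). Erap1, which trims peptides, was at 51.6, 50.6 and 41.2 CPM in LPS libraries, against 20.4, 19.6 and 18.3 in untreated libraries (log2 fold change 1.30 ± 0.12). Psme1, an activator of the proteasome, was at 55, 52.6 and 83 CPM in LPS libraries, against 28.6, 31.5 and 27.5 in untreated libraries (log2 fold change 1.12 ± 0.19). H2-D1, a presenting heavy chain, stood at 1558 ± 292 CPM in LPS libraries and 1669 ± 45.4 CPM in untreated libraries (SD, n = 3 each) and was not called. B2m, the light chain, fell to 744, 563 and 840.2 CPM in LPS libraries, against 1289, 1279 and 1252 in untreated libraries (log2 fold change -0.83 ± 0.16), and Tapbp (tapasin), which loads peptides, fell too (log2 fold change -0.75 ± 0.09). In total 8 of 23 class I genes rose and 3 fell (median log2 fold change 0.12). Genes of class II presentation and costimulation had 8 of 18 higher and 3 lower. Cd74, the invariant chain, was at 544, 486 and 825 CPM in LPS libraries, against 1181, 1148 and 1119 in untreated libraries (log2 fold change -0.89 ± 0.20). Slamf7 was at 34.2, 34 and 22.8 CPM in LPS libraries, against 6.51, 7.13 and 7.15 in untreated libraries (log2 fold change 2.13 ± 0.21), and Cd83 and Icosl rose by 0.91 ± 0.10 and 0.82 ± 0.13.

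Effector enzymes of activated macrophages had many reads in untreated cells too. Acod1, the enzyme that makes itaconate, rose to 546, 856 and 600.5 CPM in LPS libraries, against 193, 204 and 202 in untreated libraries (log2 fold change 1.74 ± 0.17, adjusted p = 1.18e-07). Nos2, by contrast, was lower, at 1364, 1163 and 1234 CPM in LPS libraries, against 2526, 2562 and 2379.7 in untreated libraries (log2 fold change -0.99 ± 0.14). Slc7a1, which imports arginine, and Sdha, a subunit of the succinate dehydrogenase that itaconate inhibits, rose by 0.88 ± 0.14 and 0.72 ± 0.14, and Idh1 fell (log2 fold change -0.75 ± 0.09). The list had 6 of 17 genes higher and 5 lower, or 5 and 7 without LPS replicate 3. In the prostaglandin pathway Ptgs2 was at 8709, 8713 and 4320.3 CPM in LPS libraries, against 4399, 4364 and 4752 in untreated libraries (log2 fold change 0.69 ± 0.23), and the call was lost without LPS replicate 1, without LPS replicate 2 and in the fit of 6 libraries with a replicate block. LPS replicate 3 lay below the lowest untreated library and the other 2 LPS libraries far above. Pla2g4a, the phospholipase that frees arachidonic acid, was at 309, 305 and 274 CPM in LPS libraries, against 166, 182 and 194 in untreated libraries (log2 fold change 0.71 ± 0.12). Ptgir, the prostacyclin receptor, was at 158, 152 and 147 CPM in LPS libraries, against 60, 64.4 and 57.2 in untreated libraries (log2 fold change 1.33 ± 0.10). Ptgs1, the constitutive cyclooxygenase, and Alox5ap, which serves leukotriene synthesis, fell (log2 fold changes -1.05 ± 0.16 and -1.50 ± 0.16). 

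Oxidase, lysozyme and other antimicrobial genes fell in 12 of 19 cases and rose in 3; on FPKM plus 1 there were 6 falls and 2 rises. S100a8, a calprotectin subunit that is also the leading neutrophil marker here, was at 172, 148 and 252 CPM in LPS libraries, against 2443, 2647 and 2386 in untreated libraries (log2 fold change -3.71 ± 0.25, adjusted p = 9.18e-09). Saa3, an acute-phase protein, was at 106, 149 and 161 CPM in LPS libraries, against 387, 373 and 371 in untreated libraries (log2 fold change -1.44 ± 0.13). Lyz2, the macrophage lysozyme, was at 3553, 3432 and 4256 CPM in LPS libraries, against 7506, 7396 and 8325 in untreated libraries (log2 fold change -1.05 ± 0.19). Mpeg1, the pore-forming perforin-2, was at 528, 566 and 453 CPM in LPS libraries, against 899, 936 and 912 in untreated libraries (log2 fold change -0.83 ± 0.11). The complement genes Cfb and C3 rose. Cfb was at 5.04, 6.84 and 7.65 CPM in LPS libraries, against 0.626, 1.75 and 2.01 in untreated libraries (log2 fold change 2.13 ± 0.30). C3 was at 12.6, 10.6 and 13.2 CPM in LPS libraries, against 5.01, 4.21 and 5.36 in untreated libraries (log2 fold change 1.32 ± 0.15). Groups did not overlap in any of these 6 genes. In the inflammasome list (5 of 18 higher, 6 lower, or 6 and 2 on FPKM plus 1), Nlrp3, the sensor that needs priming, was at 34.8, 62 and 35.2 CPM in LPS libraries, against 9.89, 9.46 and 11.6 in untreated libraries (log2 fold change 2.09 ± 0.38). Casp4, the receptor of LPS in the cytosol (caspase-11 in mice), was at 108, 122 and 137 CPM in LPS libraries, against 41.8, 40.3 and 39.2 in untreated libraries (log2 fold change 1.59 ± 0.11). Card9, an adaptor of lectin receptors, fell to 59.3, 67.7 and 48.5 CPM in LPS libraries, against 181, 161 and 168 in untreated libraries (log2 fold change -1.54 ± 0.15).

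Of 19 iron genes 7 were higher and 7 lower, against 9 and 4 on FPKM plus 1 and 7 and 8 without LPS replicate 3. The largest rise of this list was that of Steap4, a metalloreductase, at 6, 15.9 and 6.85 CPM in LPS libraries, against 0.125, 0.35 and 0.559 in untreated libraries (log2 fold change 4.74 ± 0.60). Hmox1, haem oxygenase 1, fell to 1200.0, 711 and 1466 CPM in LPS libraries, against 2651, 2671 and 2646 in untreated libraries (log2 fold change -1.24 ± 0.20), as did Blvrb, a biliverdin reductase (log2 fold change -1.18 ± 0.15), and Slc25a37, the mitochondrial iron importer (log2 fold change -1.10 ± 0.11). Fth1, the ferritin heavy chain, was not called, at 17467 ± 4651 CPM in LPS libraries and 20514 ± 985 CPM in untreated libraries (SD, n = 3 each).

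Surface receptors for phagocytosis were lower more often than higher, 12 of 26 against 5 (median log2 fold change -0.46). Fcgr1, the high-affinity IgG receptor, was at 74, 87.1 and 115 CPM in LPS libraries, against 24.5, 25 and 22.9 in untreated libraries (log2 fold change 1.93 ± 0.18). Fcgr3, a low-affinity one, was at 11.4, 9.32 and 12.2 CPM in LPS libraries, against 20.7, 25.6 and 28 in untreated libraries (log2 fold change -1.18 ± 0.16). Their shared signalling chain Fcer1g was lower, at 232, 198 and 234 CPM in LPS libraries, against 434, 427 and 429 in untreated libraries (log2 fold change -0.96 ± 0.11). Tyrobp (DAP12), a signalling chain of other receptors, was lower too, at 142, 126 and 158 CPM in LPS libraries, against 343, 341 and 313 in untreated libraries (log2 fold change -1.23 ± 0.13). Itgb2, the beta chain of complement receptor 3, was at 218, 237 and 248 CPM in LPS libraries, against 503, 494 and 495 in untreated libraries (log2 fold change -1.09 ± 0.09). Cd36, a scavenger receptor, was at 271, 202 and 257 CPM in LPS libraries, against 491, 566 and 547 in untreated libraries (log2 fold change -1.13 ± 0.11). Groups did not overlap in any of these 6 genes. 

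Siglecs, the sialic acid receptors that the series concerns, moved apart. Siglec1 (sialoadhesin), which binds sialylated pathogens, was at 175, 154 and 119 CPM in LPS libraries, against 48.5, 53.2 and 41.4 in untreated libraries (log2 fold change 1.65 ± 0.14, adjusted p = 2.66e-08). Cd33 was at 20.7, 16.4 and 16.2 CPM in LPS libraries, against 45.8, 41.5 and 46.5 in untreated libraries (log2 fold change -1.33 ± 0.17, adjusted p = 3.24e-06). Siglece, the inhibitory receptor regarded as the mouse counterpart of human Siglec-9, was near its detection limit with 22, 36 and 54 reads in LPS libraries, against 20, 18 and 24 in untreated libraries, and was not called (log2 fold change 0.01 ± 0.29, 95% interval -0.59 to 0.61). Of the phosphatases that such receptors recruit, Ptpn6 (SHP-1) was at 263, 262 and 349 CPM in LPS libraries, against 140.4, 147 and 132 in untreated libraries (log2 fold change 1.06 ± 0.12), and Ptpn11 (SHP-2) rose by 0.53 ± 0.09 on the log2 scale. On the side of the ligand, the synthesis genes Gne and Nans rose: Gne, the rate-limiting kinase and epimerase, was at 13.7, 17.9 and 17.8 CPM in LPS libraries, against 6.89, 5.61 and 6.48 in untreated libraries (log2 fold change 1.38 ± 0.16). Nans, the synthase, was at 133, 123 and 217 CPM in LPS libraries, against 82.7, 76.3 and 85.6 in untreated libraries (log2 fold change 0.95 ± 0.22). The transporter of activated sialic acid into the Golgi, Slc35a1, was lower at 15.7, 17.4 and 12.9 CPM in LPS libraries, against 25.8, 21.3 and 25.4 in untreated libraries (log2 fold change -0.65 ± 0.11). Sialyltransferases parted. St3gal6 was at 119, 123 and 133 CPM in LPS libraries, against 64.6, 74 and 74.1 in untreated libraries (log2 fold change 0.82 ± 0.12). St3gal5, which makes the ganglioside GM3, was at 114, 100.1 and 118 CPM in LPS libraries, against 182, 206 and 193 in untreated libraries (log2 fold change -0.81 ± 0.09). St6galnac6 was at 31.2, 29.4 and 39.9 CPM in LPS libraries, against 86.3, 88.9 and 87 in untreated libraries (log2 fold change -1.38 ± 0.12). St3gal6 was thus higher in LPS libraries and the other two lower. In this list 7 of 24 rose and 10 fell by counts, and 9 and 6 on FPKM plus 1.

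Of 29 transcription factors of the lineage, 9 rose and 9 fell, near the 30.8% and 28.4% of all tested genes. On FPKM plus 1 these counts were 12 and 5, and on library totals alone 13 and 8. Spi1 (PU.1), the master factor of macrophages, was not called, at 166 ± 21.6 CPM in LPS libraries and 155 ± 3.47 CPM in untreated libraries (SD, n = 3 each; 95% interval of the log2 fold change -0.17 to 0.38). Cebpd, which sustains TLR4 signalling, was at 154, 281 and 141 CPM in LPS libraries, against 33.3, 35 and 32.6 in untreated libraries (log2 fold change 2.51 ± 0.34, adjusted p = 5.74e-06). Its relative Cebpb fell to 469, 432 and 370.0 CPM in LPS libraries, against 867, 886 and 806 in untreated libraries (log2 fold change -1.01 ± 0.15). Mitf, an osteoclast and lysosome factor, was at 28.8, 23.4 and 15.3 CPM in LPS libraries, against 66, 77.1 and 65.4 in untreated libraries (log2 fold change -1.63 ± 0.19). RAW264.7 cells can become osteoclasts, and of 15 tested genes of that fate 8 fell and 2 rose (4 and 3 on FPKM plus 1). Ctsk (cathepsin K) was at 0.839, 0.847 and 1.8 CPM in LPS libraries, against 8.27, 10.2 and 9.5 in untreated libraries (log2 fold change -3.00 ± 0.34). The kinase gene Src was at 2.78, 2.28 and 2.79 CPM in LPS libraries, against 12, 9.81 and 9.27 in untreated libraries (log2 fold change -1.98 ± 0.23).

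Adhesion genes fell in 17 of 30 cases and rose in 4 (on FPKM plus 1, 11 and 8). Plaur, the urokinase receptor, was at 109.8, 136 and 133 CPM in LPS libraries, against 455, 503 and 455 in untreated libraries (log2 fold change -1.90 ± 0.20, adjusted p = 3.89e-07). Its ligand Plau was at 17.8, 15.8 and 16.8 CPM in LPS libraries, against 44.6, 46.3 and 40.2 in untreated libraries (log2 fold change -1.38 ± 0.14). Cd9, a tetraspanin, was at 347, 293 and 350.3 CPM in LPS libraries, against 799, 802 and 793 in untreated libraries (log2 fold change -1.27 ± 0.12). Lgals1 (galectin-1) was at 226, 174 and 423 CPM in LPS libraries, against 573, 621 and 609.9 in untreated libraries (log2 fold change -1.13 ± 0.26). All 4 were lower in each LPS library. Tnfaip6, a secreted protein that binds hyaluronan, was the largest rise of this list, at 10.7, 10.6 and 10.9 CPM in LPS libraries, against 0.251, 0.35 and 0.782 in untreated libraries (log2 fold change 4.49 ± 0.43).

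Most cell division genes were higher in LPS libraries. The 96 genes of DNA replication and mitosis took, of all counts, 0.446%, 0.45% and 0.423% in LPS libraries, against 0.158%, 0.164% and 0.165% in untreated libraries, a 2.71-fold higher share in LPS libraries (exact permutation p = 0.1, two-sided, the smallest possible). Of 46 replication genes 40 rose and 1 fell (median log2 fold change 1.19), and of 50 mitotic genes 47 rose and 0 fell (median 1.53). Mcm10, which starts replication forks, was at 32.7, 40.3 and 35.4 CPM in LPS libraries, against 2.63, 3.74 and 4.02 in untreated libraries (log2 fold change 3.37 ± 0.15, adjusted p = 3.23e-11). Ndc80, a kinetochore subunit, was at 38, 37 and 35.2 CPM in LPS libraries, against 3.01, 3.04 and 2.12 in untreated libraries (log2 fold change 3.76 ± 0.13, adjusted p = 2.00e-12). Ube2c, the ubiquitin enzyme of the anaphase complex, was at 71.3, 65.4 and 83.2 CPM in LPS libraries, against 7.77, 9.23 and 7.82 in untreated libraries (log2 fold change 3.15 ± 0.21). In each case every LPS library was above every untreated one. Among the genes not called were Pcna, the sliding clamp of replication, at 106 ± 16.4 CPM in LPS libraries and 93.4 ± 5.75 CPM in untreated libraries (SD, n = 3 each). Ccne1, a cyclin of S phase entry, stood at 39.3 ± 4.12 CPM in LPS libraries and 53.4 ± 2.3 CPM in untreated libraries, with an adjusted p of 0.0508 by edgeR. It gained a call in 9 of 20 alternatives, and without LPS replicate 3 it was called lower (log2 fold change -0.51, adjusted p = 0.0409 by edgeR). Among 25 G1 cyclins, CDK inhibitors and related genes 12 fell and 6 rose (10 and 8 on FPKM plus 1). Cdkn1a (p21) was at 471, 403 and 664 CPM in LPS libraries, against 1063, 1074 and 913 in untreated libraries (log2 fold change -0.99 ± 0.17). Cdkn2d (p19Ink4d) was at 45.8, 34.9 and 57.4 CPM in LPS libraries, against 116, 121 and 103 in untreated libraries (log2 fold change -1.30 ± 0.17). Btg1, an antiproliferative gene, fell to 1222, 832 and 1304 CPM in LPS libraries, against 3560.2, 3474 and 3766 in untreated libraries (log2 fold change -1.69 ± 0.16). Ccnd3, a G1 cyclin, was at 111, 88.6 and 108 CPM in LPS libraries, against 278, 291 and 266 in untreated libraries (log2 fold change -1.44 ± 0.10), and Cdk2, the S phase kinase, fell as well (log2 fold change -0.89 ± 0.10). 

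Transcripts of replication-dependent histones, whose mRNAs end in a stem-loop in place of a poly(A) tail and normally accumulate in S phase, went against the replication genes. The 58 genes took, of all counts, 0.0245%, 0.0169% and 0.0251% in LPS libraries, against 0.244%, 0.233% and 0.224% in untreated libraries, a share 10.6-fold lower in LPS libraries (exact permutation p = 0.1, two-sided). Of 37 that passed the filter, 36 were called lower and none higher. H1f2, a linker histone, was at 116, 75.9 and 89.4 CPM in LPS libraries, against 519, 479 and 500.0 in untreated libraries (log2 fold change -2.41 ± 0.20). H2bc4 was at 42.8, 17.2 and 45.2 CPM in LPS libraries, against 515, 522 and 498 in untreated libraries (log2 fold change -3.87 ± 0.25). H4c18 was at 2.71, 1.56 and 3.52 CPM in LPS libraries, against 70.6, 55 and 55.8 in untreated libraries (log2 fold change -4.54 ± 0.24). H2ac6 had 2, 0 and 0 reads in LPS libraries, against 68, 83 and 65 in untreated libraries, a level 194-fold lower in LPS libraries after scaling to effective (TMM) library sizes (exact 95% counting interval 53.1 to 1610.0). Replication-independent histone genes, whose mRNAs are polyadenylated, rose in 4 of 10 cases and fell in 3, or in 4 and 5 without LPS replicate 3. H3f3b was at 2393, 2442 and 3249.8 CPM in LPS libraries, against 1165, 1240.1 and 1084 in untreated libraries (log2 fold change 1.21 ± 0.13). H3f3a, which encodes the same protein, was at 454, 387 and 531 CPM in LPS libraries, against 805, 901 and 811 in untreated libraries (log2 fold change -0.88 ± 0.12). Other classes of RNA that poly(A) selection or removal of ribosomal RNA is known to affect moved with the histones. Malat1 and Neat1, long nuclear RNAs, took, of all counts, 0.61%, 0.615% and 0.718% in LPS libraries, against 1.64%, 1.77% and 1.61% in untreated libraries. Gm26917 and AY036118, which share sequence with ribosomal RNA, took 0.0906%, 0.0792% and 0.212% in LPS libraries, against 0.665%, 0.574% and 0.526% in untreated libraries, and Lars2, whose gene holds a ribosomal RNA-like stretch, took 0.0157%, 0.0149% and 0.0453% in LPS libraries, against 0.168%, 0.173% and 0.137% in untreated libraries. These 3 classes were chosen after their values were seen. In all 3 the untreated libraries were above the LPS libraries, as for the histones, and their part in the histone result was not tested. The selection of RNA for the libraries is not given in the sources used here. Histone genes are near copies of each other, so single values are uncertain.

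**Figure D4:**
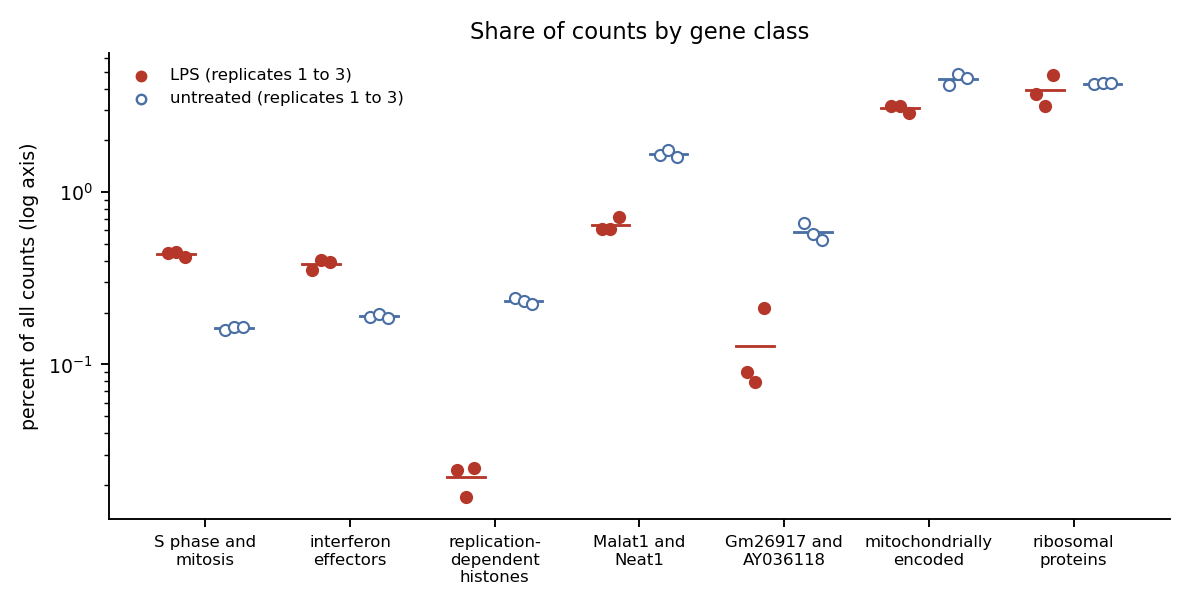
Percent of all counts (log axis) taken by 7 gene classes in each library, with the 3 LPS libraries as filled circles left of the 3 untreated libraries as open circles and a bar at each mean. S phase and mitosis genes and interferon effectors are higher in LPS libraries, replication-dependent histones, Malat1 and Neat1, ribosomal RNA-like transcripts and mitochondrially encoded genes are lower, and ribosomal protein genes overlap.

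Genes of the unfolded protein response of the endoplasmic reticulum rose in part. Of 29 tested 19 rose and 1 fell (median log2 fold change 0.61). Xbp1, the factor that IRE1 activates by splicing, was at 149, 177 and 161 CPM in LPS libraries, against 23, 23.2 and 26.9 in untreated libraries (log2 fold change 2.73 ± 0.10, adjusted p = 2.00e-12). Herpud1, of the degradation arm, was at 474, 544 and 479.8 CPM in LPS libraries, against 81.2, 70.7 and 76.5 in untreated libraries (log2 fold change 2.71 ± 0.10, adjusted p = 4.45e-12). Pdia6, which forms disulfide bonds, was at 762, 672 and 1081 CPM in LPS libraries, against 314, 289 and 323 in untreated libraries (log2 fold change 1.44 ± 0.22). Manf was at 382, 339 and 798 CPM in LPS libraries, against 158, 158 and 168 in untreated libraries (log2 fold change 1.65 ± 0.34). These were higher in each LPS library, but Hspa5 (BiP), the standard marker of the response, was not called, at 6622 ± 756 CPM in LPS libraries and 6823 ± 469 CPM in untreated libraries (SD, n = 3 each; 95% interval of the log2 fold change -0.50 to 0.41). The integrated stress response and tRNA synthetases had 20 of 31 genes higher and 6 lower. Trib3, a target of ATF4 and CHOP, was at 51, 65.2 and 62 CPM in LPS libraries, against 8.39, 7.24 and 8.27 in untreated libraries (log2 fold change 2.90 ± 0.18), and Ddit3 (CHOP) rose by 0.93 ± 0.25. Atf4 itself was lower by counts (log2 fold change -0.39 ± 0.10), a call lost on library totals alone and on FPKM. Amino acid transporters rose in 12 of 20 cases and fell in 3. The 2 chains of the leucine importer moved together, with Slc7a5 at 578, 618 and 562 CPM in LPS libraries, against 187, 169 and 171 in untreated libraries (log2 fold change 1.74 ± 0.11). Slc3a2 was at 689, 713 and 979 CPM in LPS libraries, against 376, 336 and 361 in untreated libraries (log2 fold change 1.15 ± 0.14). Slc1a4 and the glutamine importer Slc1a5 rose by 1.71 ± 0.11 and 1.05 ± 0.11.

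Cytosolic chaperones had 9 of 24 genes higher and 5 lower. The heat-inducible Hspa1b was at 3.62, 0.978 and 2.86 CPM in LPS libraries, against 223, 237 and 242 in untreated libraries (log2 fold change -6.55 ± 0.47, adjusted p = 4.81e-09). Its constitutive relative Hspa8 was at 474, 327 and 525 CPM in LPS libraries, against 2734, 2860.4 and 2563 in untreated libraries (log2 fold change -2.62 ± 0.16, adjusted p = 1.31e-09). The mitochondrial member Hspa9 rose to 981, 982 and 1076 CPM in LPS libraries, against 511, 513 and 534 in untreated libraries (log2 fold change 0.96 ± 0.13). Cct5, a subunit of the chaperonin, rose to 371, 345 and 459 CPM in LPS libraries, against 181, 189 and 212 in untreated libraries (log2 fold change 1.01 ± 0.15). Hspa1b has a near-identical copy, Hspa1a, with 0, 1 and 0 reads in LPS libraries, against 0, 0 and 0 in untreated libraries. Nearly all counted reads of the pair were thus assigned to Hspa1b, and how reads shared by both copies were handled is not given. In the NRF2 list (7 of 28 higher, 9 lower; 11 and 6 on FPKM plus 1), Sqstm1 (p62), also an autophagy receptor, was at 3749, 3652 and 5230.5 CPM in LPS libraries, against 1262, 1275 and 1290.4 in untreated libraries (log2 fold change 1.72 ± 0.16, adjusted p = 7.04e-08). The antioxidant gene Prdx1 fell to 456, 403 and 578 CPM in LPS libraries, against 1062, 1110.0 and 1052 in untreated libraries (log2 fold change -1.17 ± 0.17). Gpx1 fell to 113, 102 and 145 CPM in LPS libraries, against 260.1, 274 and 251 in untreated libraries (log2 fold change -1.12 ± 0.13). 

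Genes of ribosome biogenesis rose in most cases. Of 43 nucleolar and pre-rRNA processing genes 34 rose and 1 fell (median log2 fold change 1.04). Ncl (nucleolin) was at 925, 956 and 1085 CPM in LPS libraries, against 253, 245 and 283 in untreated libraries (log2 fold change 1.93 ± 0.13, adjusted p = 2.31e-09). Nop58, of the box C/D methylation complex, was at 228, 271 and 249 CPM in LPS libraries, against 38, 46.7 and 50.1 in untreated libraries (log2 fold change 2.47 ± 0.11, adjusted p = 2.37e-11). Its enzyme Fbl (fibrillarin) was at 125, 122 and 189.7 CPM in LPS libraries, against 60.5, 56.2 and 50.8 in untreated libraries (log2 fold change 1.38 ± 0.19). Gar1, of the pseudouridylation complex, was at 52.7, 61.2 and 78.3 CPM in LPS libraries, against 15.4, 12.7 and 17.2 in untreated libraries (log2 fold change 2.08 ± 0.16). In each the groups were apart. Host genes of small nucleolar RNAs went both ways: Snhg1 was at 88.8, 81 and 116 CPM in LPS libraries, against 40, 38.6 and 43 in untreated libraries (log2 fold change 1.23 ± 0.23). Snhg12 was at 38.3, 34 and 51.6 CPM in LPS libraries, against 17, 14.4 and 15.6 in untreated libraries (log2 fold change 1.40 ± 0.22). Snhg6 was at 13.8, 10.6 and 14.6 CPM in LPS libraries, against 50.7, 54 and 47.3 in untreated libraries (log2 fold change -1.96 ± 0.14). Ribosomal protein genes took, of all counts, 3.73%, 3.16% and 4.8% in LPS libraries, against 4.23%, 4.31% and 4.29% in untreated libraries, with overlapping groups (exact permutation p = 0.5, two-sided). Of 78, 4 rose and 29 fell. LPS replicate 3 had these genes higher than LPS replicates 1 and 2, by a median of 0.62 on the log2 scale, and without it none rose and 46 fell, while on FPKM plus 1 10 rose and 11 fell. No direction is therefore given for this group.

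With TMM scaling, proteasome genes rose more often than they fell and lysosomal genes the reverse. On library totals alone and on FPKM plus 1 both lists had more rises than falls. Of 34 proteasome genes 21 rose and 2 fell, or 17 and 5 without LPS replicate 3. Psmc2, an ATPase of the cap, was at 133, 137 and 189 CPM in LPS libraries, against 32.9, 43.6 and 38.2 in untreated libraries (log2 fold change 2.00 ± 0.15, adjusted p = 1.10e-08). Psmc4 was at 76.1, 89.1 and 112 CPM in LPS libraries, against 35.6, 34.8 and 32.3 in untreated libraries (log2 fold change 1.43 ± 0.16). Psmd14, the deubiquitinase of the lid, was at 217, 204 and 259 CPM in LPS libraries, against 96.8, 103 and 101 in untreated libraries (log2 fold change 1.18 ± 0.11). Each was higher in all LPS libraries. Of 39 lysosomal genes 18 fell and 4 rose by counts, but 8 and 14 on FPKM plus 1. The falls of Psap, the saposin precursor, Ctsd (cathepsin D) and Atp6ap1 of the proton pump were called under every alternative tried. Psap was at 743, 606 and 965 CPM in LPS libraries, against 2795, 2687 and 2700.3 in untreated libraries (log2 fold change -1.82 ± 0.15). Ctsd was at 3112, 2512 and 3928 CPM in LPS libraries, against 7886, 8269.6 and 7941 in untreated libraries (log2 fold change -1.34 ± 0.17). Atp6ap1 was at 241, 221 and 270.4 CPM in LPS libraries, against 749, 737 and 699 in untreated libraries (log2 fold change -1.58 ± 0.10). In the autophagy list (8 of 30 higher, 12 lower, or 12 and 10 on FPKM plus 1), Atg16l1, which directs the lipidation of LC3, fell to 59, 47.1 and 47.8 CPM in LPS libraries, against 149, 158 and 151 in untreated libraries (log2 fold change -1.57 ± 0.11).

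Metabolic genes also moved in parts. In glycolysis and hypoxia 14 of 30 fell and 3 rose by counts, while on FPKM plus 1 7 fell and 10 rose. Hk2, the inducible hexokinase, was at 199, 215 and 186 CPM in LPS libraries, against 53.6, 50.8 and 54.5 in untreated libraries (log2 fold change 1.92 ± 0.09, adjusted p = 5.39e-11). The lactate exporter Slc16a3 was at 229, 264 and 303 CPM in LPS libraries, against 118, 131 and 108 in untreated libraries (log2 fold change 1.15 ± 0.13). Pgam1 was at 936, 745 and 1011 CPM in LPS libraries, against 2266, 2356 and 2190.5 in untreated libraries (log2 fold change -1.34 ± 0.11). Vegfa, a target of HIF-1, was at 161, 156 and 158 CPM in LPS libraries, against 483, 441 and 441 in untreated libraries (log2 fold change -1.52 ± 0.09). Hexokinase and lactate export, at the start and the end of the pathway, were higher in every LPS library, and Pgam1 between them was lower. Enzymes of the TCA cycle rose in 10 of 26 cases and fell in 3. Fh1 (fumarase) was at 117, 109 and 145 CPM in LPS libraries, against 56.5, 56.4 and 59.3 in untreated libraries (log2 fold change 1.11 ± 0.17). Sucla2, a subunit of succinyl-CoA synthetase, was at 50.1, 45 and 59.3 CPM in LPS libraries, against 27.6, 23.9 and 28.8 in untreated libraries (log2 fold change 0.94 ± 0.11). Dld, shared by the dehydrogenase complexes, was at 224, 231 and 240.0 CPM in LPS libraries, against 141, 144 and 145 in untreated libraries (log2 fold change 0.69 ± 0.11). The genes that carry citrate out and cleave it fell: Slc25a1 was at 39.6, 35.8 and 48.4 CPM in LPS libraries, against 72.9, 76.2 and 71.2 in untreated libraries (log2 fold change -0.83 ± 0.13). Acly was at 169.9, 161 and 139 CPM in LPS libraries, against 273, 257 and 274 in untreated libraries (log2 fold change -0.77 ± 0.10).

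For the respiratory chain, 11 of 50 nuclear-encoded genes rose and 17 fell, or 7 and 27 without LPS replicate 3, in which these genes were higher than in LPS replicates 1 and 2 by a median of 0.60 on the log2 scale. On FPKM plus 1 18 rose and 3 fell, so no direction is given. Genes of the mitochondrial genome took, of all counts, 3.16%, 3.15% and 2.9% in LPS libraries, against 4.19%, 4.83% and 4.6% in untreated libraries (exact permutation p = 0.1, two-sided). ATP6 was at 2647, 2444 and 2209 CPM in LPS libraries, against 6903, 8228 and 7439 in untreated libraries (log2 fold change -1.63 ± 0.16). COX3 was at 2432, 2669 and 2587 CPM in LPS libraries, against 6273, 7199 and 6902 in untreated libraries (log2 fold change -1.41 ± 0.18). ND6, the only one of these protein genes on the other strand, rose to 319, 278 and 396 CPM in LPS libraries, against 145, 162 and 133 in untreated libraries (log2 fold change 1.17 ± 0.14), though whether reads were counted by strand is not given. 

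Lipid genes moved both ways. In the synthesis of cholesterol and fatty acids 10 of 35 rose and 7 fell, and 23 and 4 on FPKM plus 1. By counts neither share was above that of all tested genes (30.8% and 28.4%). Cyp51, a sterol demethylase, was at 38.4, 33.9 and 37 CPM in LPS libraries, against 12.1, 12 and 12.2 in untreated libraries (log2 fold change 1.59 ± 0.16). Fdft1 (squalene synthase) was at 25.4, 19.5 and 27 CPM in LPS libraries, against 47, 46.1 and 48.4 in untreated libraries (log2 fold change -0.98 ± 0.12). Abca1, which exports cholesterol under LXR, fell to 12.1, 19.8 and 6.12 CPM in LPS libraries, against 49, 47.5 and 58.3 in untreated libraries (log2 fold change -2.02 ± 0.30, adjusted p = 1.54e-05). Plin2, which coats lipid droplets, rose to 1076, 1255 and 1667 CPM in LPS libraries, against 356, 375 and 365 in untreated libraries (log2 fold change 1.87 ± 0.19, adjusted p = 3.03e-07). The groups did not overlap in any of these 4 genes. 

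Genes of cell death and survival were lower, 13 of 24 BCL2 family and caspase genes against 3 higher. On FPKM plus 1 10 were lower and 8 higher. Genes that promote survival and genes that promote death were both among those that fell. Mcl1, a short-lived survival protein, was at 992, 787 and 941 CPM in LPS libraries, against 3199, 3136 and 3166 in untreated libraries (log2 fold change -1.80 ± 0.09, adjusted p = 1.68e-10). Bcl2l1 (BCL-xL) was at 200.0, 168 and 269 CPM in LPS libraries, against 411, 415 and 374 in untreated libraries (log2 fold change -0.91 ± 0.17). Of the BH3-only proteins that oppose them, Pmaip1 (NOXA) was at 83.9, 81.3 and 77.2 CPM in LPS libraries, against 207, 210.1 and 209 in untreated libraries (log2 fold change -1.37 ± 0.10, adjusted p = 4.29e-09). Bcl2l11 (BIM) was at 168, 152 and 147 CPM in LPS libraries, against 306, 295 and 304 in untreated libraries (log2 fold change -0.96 ± 0.09). All 4 were lower in each LPS library. Bax, the effector, was not called, at 157 ± 39.1 CPM in LPS libraries and 179 ± 9.97 CPM in untreated libraries (SD, n = 3 each), but without LPS replicate 3 it was called lower (log2 fold change -0.41, adjusted p = 0.0266 by edgeR).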

How the data were processed

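The deposited count table gave raw counts by gene symbol, judged from its whole numbers. The deposited FPKM table gave the authors' values scaled to gene length and library total, per its title. GRCm39 and CASAVA are named in the submitters' processing notes; no source used here gives the aligner, counter, annotation, strand setting, handling of shared reads or RNA selection. Genes with close copies or processed pseudogenes (histones, Hspa1a and Hspa1b, Gapdh, ribosomal proteins, guanylate-binding proteins, Bcl2a1 genes) and overlapping or antisense genes are therefore uncertain. Columns were matched to samples by title, and 0 columns belong to no sample.

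Counts of all 18 libraries, in 6 groups, entered 1 edgeR fit (version 4.0.16, R 4.3.3; quasi-likelihood F test, TMM factors, 12 residual degrees of freedom, common dispersion 0.0219). The filter filterByExpr (minimum count 10, minimum total 15) left 13482 of 35510 genes. P-values were adjusted over all tested genes by the Benjamini-Hochberg method, with calls where the adjusted p was under 0.05. Each SE equals the size of the log2 fold change over the square root of F. The SD is taken over 3 libraries. In simulated data with 200 of 13482 genes changed, 35.8%, 65.7% and 92.4% of 1.5-fold, 2-fold and 4-fold changes were recovered, with 7 false calls. The simulation had far fewer changed genes than the 59.2% called here and no trend with gene length in a library. Its recovery and false calls therefore do not carry over to the 7982 calls. Counting intervals are exact at 95% and cover counting error only. Shares of counts were compared by exact permutation tests, two-sided. FPKM values were tested by limma 3.58.1 on log2(FPKM + 1), a scale that understates changes of low genes. Other alternatives were DESeq2 1.42.0, other size factors, filters, fits, a replicate block and leaving out each replicate.

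The comparison, the 52 gene lists, the 9 marker lists and the naming rule were all chosen with earlier results of these data known. The rule takes 6 or fewer called genes of lowest p per list, and the 3 genes of highest mean FPKM. It adds a panel of 23 genes and, in either direction, the 10 largest log2 fold changes and the 10 largest differences in mean CPM, for called genes with at least 5 CPM in the higher group, no overlap and no predicted or clone name. Genes named beyond the rule are said to be so, or are near copies of a named gene. Some genes are not reported here.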

Additional observations from a re-analysis of the deposited data

How the results depend on the processing

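The number of genes called was 7982 and lay between 7190 and 7974 when 1 of the 6 libraries was left out. Of 52 gene lists, 25 had more members higher than lower in LPS libraries, and 21 to 26 when 1 library was left out. Scaling moved the balance: on library totals alone 39 lists had more members higher, on log2(FPKM + 1) 42, on log2(FPKM + 0.1) 43 and with mean FPKM at least 1 it was 41, and the genes called lower numbered 2537 on library totals alone, 2535 on log2(FPKM + 0.1) and 1806 with mean FPKM at least 1, against 3833. As a share of the FPKM sum, the difference between LPS and untreated libraries was -3.72 percentage points for mitochondrially encoded genes, -0.578 for replication-dependent histones, 0.244 for antiviral effectors, -0.337 for Malat1 and Neat1, -0.155 for Gm26917 and AY036118, -0.0481 for Lars2 and 0.183 for S phase and mitosis genes, each with the sign it had on counts. For ribosomal protein genes the sign turned, with 0.3 on FPKM against -0.377 on counts (-0.832 to -0.0117 when 1 library was left out). Of 383 called named genes, 43 lost the call in at least 1 alternative, 36 of them on FPKM. Of these 383 only Cd44, an adhesion receptor with a log2 fold change of -0.26, turned sign, at 0.0136 on library totals alone, 0.0708 on log2(FPKM + 1) with and without the filter on mean FPKM, and 0.0715 on log2(FPKM + 0.1). Without LPS replicate 3 Cd44 kept its sign but lost its call (log2 fold change -0.20, adjusted p = 0.0774 by edgeR). The causes were not tested. Replicate numbers did not pair LPS with untreated libraries (correlations of deviations between libraries of the same number of -0.0126, -0.106 and -0.112 over 10055 genes). Between LPS and LPS + POx-SA libraries such correlations reached 0.907, for replicate 3 of both groups, and without both of these libraries 8715 genes were called. A replicate block gave 6738 calls in the fit of 6 libraries and 8151 in that of 18. Without LPS replicate 3, a fit of the other 5 libraries, chosen after seeing the data, gave 9055. The motif alternative for promoters was not run, since no sequences were used here. Members below the filter on low counts were not tested.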

Other observations

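Genes of metal binding and of the clock were described as well. The metallothioneins, which bind zinc and copper, were lower in LPS libraries: Mt1 was at 565, 443 and 887 CPM in LPS libraries, against 2659, 2868 and 2123 in untreated libraries (log2 fold change -2.01 ± 0.28, adjusted p = 1.04e-05). Mt2 was at 969, 806 and 1258 CPM in LPS libraries, against 3939, 4218 and 3327 in untreated libraries (log2 fold change -1.92 ± 0.22, adjusted p = 1.05e-06). Mtf1, the zinc-sensing factor that activates them, rose to 81.3, 87.6 and 66.7 CPM in LPS libraries, against 52.6, 59.9 and 51.7 in untreated libraries (log2 fold change 0.52 ± 0.10). The zinc importer gene Slc39a10 fell to 46.8, 36.9 and 26.6 CPM in LPS libraries, against 83.7, 80.8 and 81.6 in untreated libraries (log2 fold change -1.16 ± 0.18). Zinc transporters and metallothioneins together had 4 of 14 genes higher and 4 lower, near the shares over all tested genes, or 7 and 3 on FPKM plus 1. Of 22 clock genes and nuclear receptors 5 rose and 8 fell by counts, and 7 and 3 on FPKM plus 1. Over all tested genes 30.8% rose and 28.4% fell by counts. Nfil3, a repressor of clock output, was at 95.8, 114 and 116 CPM in LPS libraries, against 62.3, 58.9 and 58.4 in untreated libraries (log2 fold change 0.86 ± 0.10). Cry2, a core clock repressor, was at 106, 99.1 and 112 CPM in LPS libraries, against 58.4, 59.7 and 64 in untreated libraries (log2 fold change 0.80 ± 0.09). Rara, a retinoic acid receptor, was at 40.2, 32.4 and 37.8 CPM in LPS libraries, against 79.8, 87.4 and 72.7 in untreated libraries (log2 fold change -1.12 ± 0.11).

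Among the largest changes outside the gene lists, Trib1, a pseudokinase that directs C/EBP alpha to degradation, was at 24.4, 50 and 26.3 CPM in LPS libraries, against 1.63, 1.52 and 2.01 in untreated libraries (log2 fold change 4.28 ± 0.43, adjusted p = 2.27e-07). Grhl2, a transcription factor known from epithelia, was at 19.4, 23.1 and 17.3 CPM in LPS libraries, against 1, 2.34 and 1.23 in untreated libraries (log2 fold change 3.70 ± 0.42). Chil6, a chitinase-like protein, fell to 2.07, 0.456 and 1.46 CPM in LPS libraries, against 48.3, 48 and 45.5 in untreated libraries (log2 fold change -5.14 ± 0.55, adjusted p = 4.26e-07). Ovgp1, known as a glycoprotein of the oviduct, fell to 0, 0.196 and 0.2 CPM in LPS libraries, against 9.14, 16.9 and 10.2 in untreated libraries (log2 fold change -6.44 ± 0.68). None of these 4 overlapped between groups. By difference in level, Eef2, the elongation factor of translation, was at 2948, 2311 and 3241 CPM in LPS libraries, against 1910.2, 1851 and 2080.3 in untreated libraries (log2 fold change 0.54 ± 0.16). Slfn4 of the Schlafen family was at 2257, 2411 and 2030.0 CPM in LPS libraries, against 1048, 1158 and 1073 in untreated libraries (log2 fold change 1.03 ± 0.13). The largest fall in level was that of Spp1 (osteopontin), at 33799, 27156 and 33002 CPM in LPS libraries, against 48971, 48919 and 51238 in untreated libraries (log2 fold change -0.67 ± 0.17), a call that was lost on FPKM.

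Counts and FPKM parted for some genes. The log2 fold change of FPKM differed by over 0.25 from that of counts, beyond the shift common to all genes, for 728 of 8788 genes (8.28%). The mitochondrial genes ND4L and ND3, chosen after their values were seen, had nearly all of their reads in LPS replicate 3. ND4L had 0, 19 and 202 reads in LPS libraries, against 0, 0 and 0 in untreated libraries, and ND3 had 0, 0 and 567 reads in LPS libraries, against 0, 0 and 0 in untreated libraries.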
